A study of Mus musculus with 12 samples.

Results

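Ndrg2, Calca, A2m, Enpp2, Pgm2 and Dnah8 were examined, 6 genes of the 19996 listed in the serum table of a study of the forkhead transcription factor Foxd3 in mouse embryonic stem cells. They were chosen because they fell in serum when Foxd3 was deleted, and because none belongs to the gene lists usually followed in these cells. The serum deletion comparison therefore picked them, and their values there are a description with no test. The comparisons in 2i and with added Foxd3 used other libraries and were open to a test. Earlier results of these data were known when the genes were chosen, which limits that test. All 6 genes had a row in each of the 3 deposited tables.

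Polyadenylated RNA was sequenced in 12 libraries, 2 for each of 6 groups. The deletion cells, Foxd3fl/fl;Cre-ER, carry a floxed Foxd3 gene and a tamoxifen-activated recombinase. They were given 4-hydroxytamoxifen (2 µM, 3 days; SL Foxd3-/-) or left untreated (SL Foxd3fl/fl) in 15% serum with leukemia inhibitory factor on irradiated fibroblast feeders. The same treatment in serum-free medium with leukemia inhibitory factor, the MEK inhibitor PD0325901 (0.4 µM) and the GSK3β inhibitor CHIR99021 (3 µM) gave 2i Foxd3-/- and 2i Foxd3fl/fl. The protocol names no feeders for 2i. In the third comparison tetON Foxd3 cells, in which doxycycline induces Foxd3, and LF2 wild-type cells (WT) were both treated with doxycycline for 3 days, in serum without feeders. The dose is listed as 1 µg/µl for tetON Foxd3, and none is listed for WT, whose sample titles name doxycycline. No group received tamoxifen without the floxed allele, and medium and feeders changed together. The labels do not tell whether replicates were grown separately, and the spread behind each p-value may thus be technical.

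Ndrg2 encodes a cytoplasmic protein of the N-myc downstream-regulated family, studied in astrocytes and as a growth suppressor. Calca encodes both calcitonin and, by alternative splicing, calcitonin gene-related peptide. A2m encodes the secreted protease trap alpha-2-macroglobulin, and Enpp2 encodes autotaxin, the secreted enzyme that makes lysophosphatidic acid from lysophosphatidylcholine. Pgm2 in these tables is the gene now called Pgm1, a phosphoglucomutase that interconverts glucose 1-phosphate and glucose 6-phosphate between glycogen metabolism and glycolysis. Dnah8 encodes a heavy chain of axonemal dynein, the motor of cilia and sperm tails.

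Values are FPKM (fragments relative to transcript length and to the mapped total), deposited by the authors for each library. The sum of their mean reads, scaled by the authors, lay between 24278900 and 54096100 in the 6 groups, and the depth of a single library is not known. Foxd3 checked the labels. It measured 1.62 and 1.83 FPKM in SL Foxd3-/- libraries and 4.53 and 4.81 FPKM in SL Foxd3fl/fl libraries (limma adjusted p = 0.137), and 53.2 and 50.1 FPKM in tetON Foxd3 against 10.6 and 14.1 FPKM in WT (limma adjusted p = 0.0145). In 2i it did not follow the labels. It measured 2.07 and 2.45 FPKM in libraries labelled Foxd3-/- and 2.51 and 2.42 FPKM in 2i Foxd3fl/fl libraries (limma adjusted p = 0.461). The authors' deposited table lists more mean reads in the first group (376 against 221, fold 1.7). The authors' deposited p-value, adjusted over all genes, was 9.43e-06, a call of Foxd3 as higher in libraries labelled Foxd3-/-. Directions in 2i therefore rest on the labels alone. Of 8 pluripotent cell markers 0 lay below 1 FPKM in any group. FPKM were normalised table by table, and levels set side by side across tables are descriptions.

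Sequences before the start sites are shown for the 3 genes where a forkhead motif was found or where the 2i change was among the largest. RefSeq windows of 250 bases before to 50 bases after a start (GRCm38.p6) were on hand for 4 of the 6 genes, Ndrg2, Calca, Pgm2 (as Pgm1) and Dnah8. They were searched on both strands for TGTTTAC and TTTGTTT, letters bound by forkhead factors. Of all 32851 windows, 3.65% hold TGTTTAC and 9.82% hold TTTGTTT. Capitals mark the match.
Ndrg2, TGTTTAC, minus strand, chr14:51914142-51914168: cctccgcgccTGTTTACacaggagtca
Dnah8, TTTGTTT read on the other strand, plus strand, chr17:30626733-30626759: agagtaccctAAACAAAgtttcagttc
Calca, no match, minus strand, chr7:114636358-114636607: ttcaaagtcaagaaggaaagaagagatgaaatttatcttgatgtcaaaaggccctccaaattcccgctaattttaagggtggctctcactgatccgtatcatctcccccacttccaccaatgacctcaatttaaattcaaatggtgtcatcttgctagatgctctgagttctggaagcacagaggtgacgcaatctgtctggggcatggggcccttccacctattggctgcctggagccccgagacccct
The Ndrg2 match starts 154 bases and the Dnah8 match 193 bases before the start site. The Pgm2 window held neither motif, and neither did the other 2 Ndrg2 windows. The Ndrg2 match lies within the annotated span of Ndrg2 and the Dnah8 match within those of Dnah8 and Glo1. A match is a description of the letters and not a measured binding site. The windows also differ in CpG content, with 8 CpG in that of Calca, 11 to 20 in the Ndrg2 windows, 14 in that of Pgm2 and 16 in that of Dnah8, against a median of 7 over all windows.

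In serum, both SL Foxd3-/- libraries lay below both SL Foxd3fl/fl libraries for all 6 genes, which the choice of the genes fixes. Ndrg2 measured 8.44 and 10.4 FPKM in SL Foxd3-/- against 21.5 and 23.8 FPKM in SL Foxd3fl/fl libraries, a log2 difference (of FPKM + 1) of -1.19. Calca, at 7.27 and 10.1 FPKM in SL Foxd3-/- against 19.3 and 22.2 FPKM in SL Foxd3fl/fl, differed by -1.18. These were the 2 widest differences of the 6 genes, in a cytoplasmic protein and in a secreted peptide precursor.

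The remaining 4 genes differed less in serum. A2m, the protease trap, had 2.36 and 3.05 FPKM in SL Foxd3-/- against 6.02 and 5.73 FPKM in SL Foxd3fl/fl libraries (log2 difference -0.90). Enpp2, the lysophosphatidic acid producer, had 4.8 and 5.99 FPKM in SL Foxd3-/- against 9.55 and 11.1 FPKM in SL Foxd3fl/fl (-0.83). Both are secreted proteins. Pgm2, the sugar phosphate enzyme, had 20.2 and 24.9 FPKM in SL Foxd3-/- against 36.4 and 41.6 FPKM in SL Foxd3fl/fl (-0.77). Dnah8, the motor protein, had 2.83 and 2.79 FPKM in SL Foxd3-/- against 5.3 and 5.55 FPKM in SL Foxd3fl/fl (-0.75).

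These values stand on many reads. In the authors' deposited table, the group mean reads were 528 in SL Foxd3-/- and 1239 in SL Foxd3fl/fl for Calca, the lowest of the 6 in both groups. For Pgm2 they were 2765 in SL Foxd3-/- and 4881 in SL Foxd3fl/fl in the same deposited table, and for Dnah8 2743 against 5447. With Benjamini-Hochberg adjustment of p-values from the authors' deposited table, 19 of 19996 genes were lower in SL Foxd3-/- (0.095%), the 6 genes among them because they were picked from such falls. limma on FPKM called 0 of 12024 genes lower at an adjusted p under 0.05, and 367 (3.05%) at an unadjusted p under 0.05. Libraries did not overlap in this direction for 17.3% of the genes tested. In the other direction limma called 0.00832% of genes (6.07% unadjusted) and the authors' deposited p-values 0.44%.

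**Figure D1:**
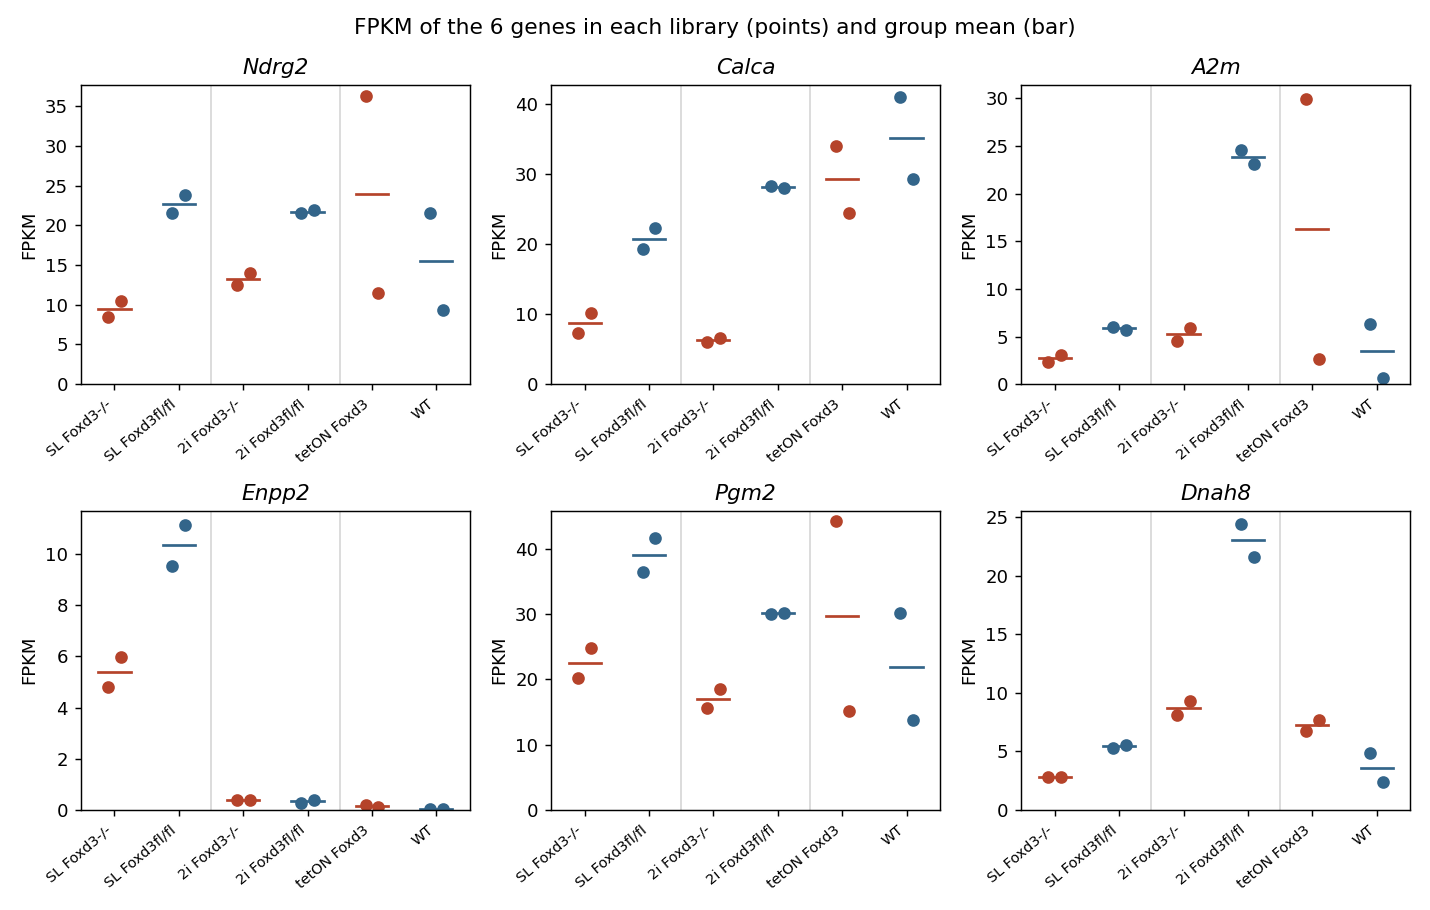
FPKM (linear axis from 0) of each gene in each library, as points, with the group mean as a bar, in red for SL Foxd3-/-, 2i Foxd3-/- and tetON Foxd3 and in blue for the group each was set against. Enpp2 reached 4.8 FPKM or more in all 4 SL libraries and stayed at 0.396 FPKM or less elsewhere, while Ndrg2, A2m and Pgm2 differed widely between the 2 libraries of tetON Foxd3 and of WT.

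The rule that chose the genes did not use the same contrast in 2i, though earlier results of these data were known. Of the 6 genes, 5 were tested, having reached a group mean of 1 FPKM, and all 5 fell in the libraries labelled Foxd3-/- at an adjusted p under 0.05 (limma, adjusted over 11637 genes). In this comparison limma called 19.7% of all genes lower and 47.9% higher. The median log2 difference of all genes tested was 0.19 and became -0.02 after median-of-ratios scaling of the FPKM. With that scaling 33.8% of genes were called lower and 30.3% higher, and these 5 genes were again called lower. So were they by adjusted p-values from the authors' deposited table, which called 20.2% of 19718 genes lower and 20.6% higher. Both libraries labelled Foxd3-/- lay below both 2i Foxd3fl/fl libraries for these 5 genes, as they did for 26.6% of all genes tested.

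Calca and A2m fell furthest in 2i. Calca measured 6.01 and 6.6 FPKM in 2i Foxd3-/- against 28.2 and 28.0 FPKM in 2i Foxd3fl/fl libraries. Its log2 difference was -1.996 (SE 0.08, limma adjusted p = 1.49e-06), and -2.20 after scaling. A2m measured 4.58 and 5.88 FPKM in 2i Foxd3-/- against 24.6 and 23.1 FPKM in 2i Foxd3fl/fl, a log2 difference of -2.005 (SE 0.11, limma adjusted p = 5.14e-06) and -2.21 after scaling. Counted from the largest fall, A2m stood at rank 26 and Calca at rank 27 of 11637 genes. The authors' deposited table lists 171 against 897 mean reads for Calca and 732 against 3979 for A2m.

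Dnah8 fell to 8.09 and 9.31 FPKM in 2i Foxd3-/-, against 24.4 and 21.6 FPKM in 2i Foxd3fl/fl libraries. The log2 difference of -1.31 (SE 0.10, limma adjusted p = 1.69e-05; -1.52 after scaling) put it at rank 88 from the largest fall. Pgm2 fell to 15.6 and 18.5 FPKM in 2i Foxd3-/-, against 30.1 and 30.3 FPKM in 2i Foxd3fl/fl (log2 difference -0.79, SE 0.08, limma adjusted p = 9.23e-05; -1.01 after scaling). Ndrg2 fell to 12.5 and 14.0 FPKM in 2i Foxd3-/-, against 21.5 and 21.9 FPKM in 2i Foxd3fl/fl (log2 difference -0.67, SE 0.08, limma adjusted p = 0.000145; -0.89 after scaling). Pgm2 and Ndrg2 stood at ranks 320 and 453 of 11637.

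Enpp2 stood apart in 2i. It measured 0.392 and 0.396 FPKM in 2i Foxd3-/- and 0.29 and 0.382 FPKM in 2i Foxd3fl/fl libraries, below the filter and therefore not tested. The deposited mean reads were 36.5 and 37.4, with a fold of -1.03 in the authors' deposited table.

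One limit bears on the 2i calls. When the spread of a gene was pooled over all 12 libraries in 1 fit, Calca (adjusted p = 9.9e-05) and Dnah8 (adjusted p = 0.000977) passed limma's test, and A2m (0.0755), Pgm2 (0.151) and Ndrg2 (0.239) did not.

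**Figure D2:**
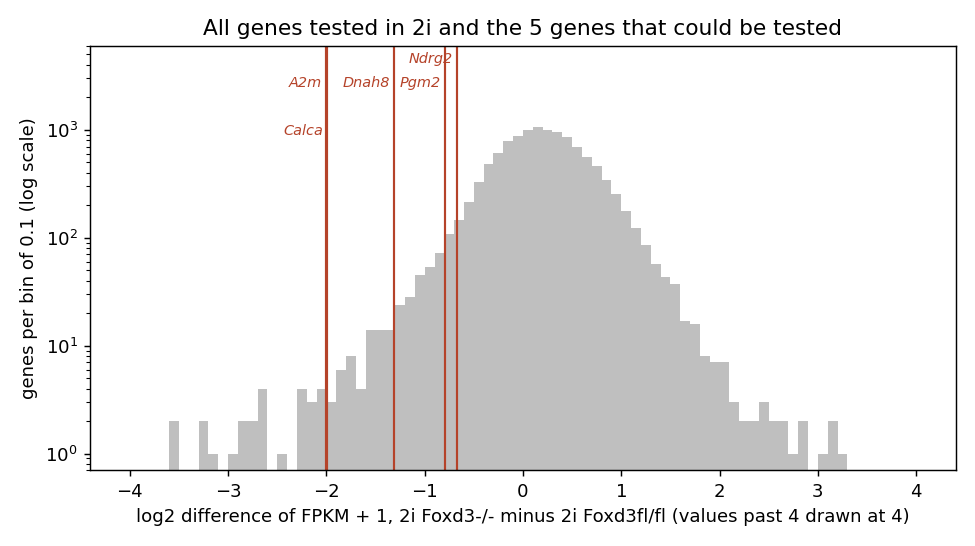
Number of genes (log axis) by log2 difference of FPKM + 1 between 2i Foxd3-/- and 2i Foxd3fl/fl libraries for the 11637 genes tested, in grey, with red lines at the 5 genes that could be tested. The lines of A2m at -2.005 and Calca at -1.996 lie in the far left tail, and those of Pgm2 at -0.79 and Ndrg2 at -0.67 on the left shoulder.

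With Foxd3 added, 0 of the 5 genes tested passed limma's adjusted threshold, where limma called 0.994% of 11972 genes higher and 1.65% lower. Without adjustment, at p under 0.05, limma called 1, Dnah8, and 10.4% of all genes higher and 10.4% lower. Adjusted likewise, p-values from the authors' deposited table called 0 of the 6 (2.59% of 19996 genes lower and 1.96% higher). Dnah8 measured 6.74 and 7.7 FPKM in tetON Foxd3 and 4.86 and 2.35 FPKM in WT libraries, a log2 difference of 0.89 (95% interval 0.18 to 1.60, unadjusted p = 0.0227, limma adjusted p = 0.164). It was the single tested gene of the group whose tetON Foxd3 libraries lay wholly above the WT libraries, as they did for 29.5% of all genes tested.

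For A2m, Ndrg2 and Pgm2 the libraries of a group lay far apart. A2m had 29.9 and 2.66 FPKM in tetON Foxd3 and 6.3 and 0.634 FPKM in WT libraries (log2 difference 1.62, 95% interval -1.23 to 4.48). Ndrg2 had 36.3 and 11.5 FPKM in tetON Foxd3 and 21.6 and 9.38 FPKM in WT (0.50, -0.98 to 1.98). Pgm2 had 44.3 and 15.2 FPKM in tetON Foxd3 and 30.2 and 13.7 FPKM in WT (0.34, -1.06 to 1.74). In these 3 genes, and in Calca, the first library of each group was the high one, and the groups overlapped.

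Calca had 34.0 and 24.4 FPKM in tetON Foxd3 and 40.9 and 29.2 FPKM in WT libraries, a log2 difference of -0.25 (95% interval -0.80 to 0.29). It was the only one of the 5 with a difference below 0. Enpp2, below the filter, had 0.21 and 0.122 FPKM in tetON Foxd3 and 0.0301 and 0.0373 FPKM in WT, on 19.7 and 3.37 mean reads in the authors' deposited table. Leaving out tetON Foxd3 replicate 1 moved the log2 difference to -0.29 for Ndrg2, -0.40 for Pgm2 and 0.08 for A2m, and leaving out WT replicate 2 moved it to -0.07, -0.20 and 0.54. The sign for Ndrg2 and Pgm2 thus differed with each of these 2 libraries left out. Within each replicate number, though, tetON Foxd3 lay above WT for both genes, and no label pairs the numbers.

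**Figure D3:**
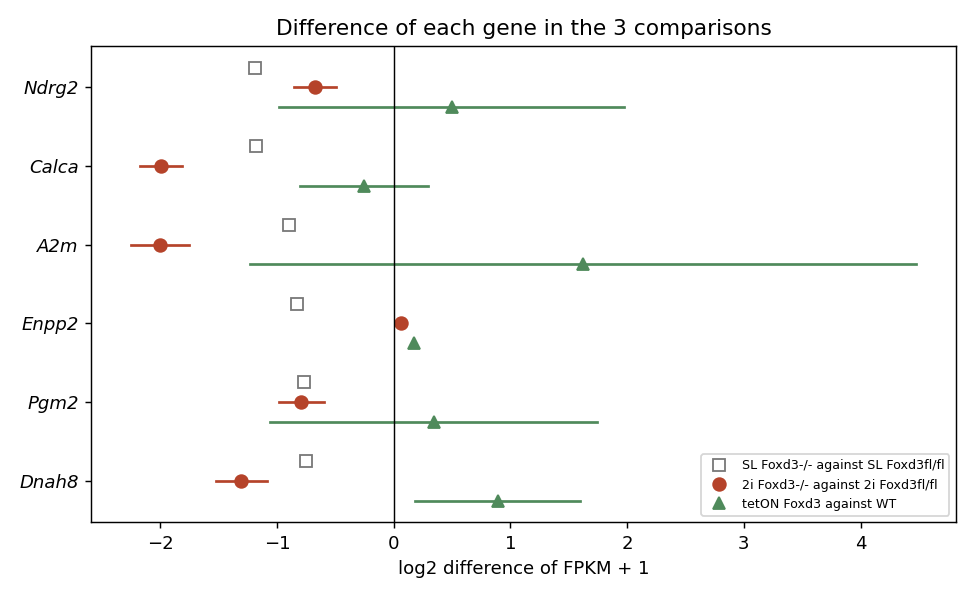
Log2 difference of FPKM + 1 for each gene, as open squares for SL (not tested), red circles for 2i and green triangles for tetON Foxd3 against WT, with limma's 95% intervals as lines where a gene was tested. All 2i intervals shown lie below 0, and those of tetON Foxd3 against WT cross 0 except for Dnah8.

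Ndrg2 (ENSMUSG00000004558) lies on chromosome 14, 51905271 to 51914158, minus strand (GRCm38, GENCODE M21), where no other annotated gene overlaps it. Its group means ran from 9.44 FPKM in SL Foxd3-/- through 13.3 FPKM in 2i Foxd3-/- and 15.5 FPKM in WT to 21.7, 22.7 and 23.9 FPKM in 2i Foxd3fl/fl, SL Foxd3fl/fl and tetON Foxd3. From 2i Foxd3-/- upward, each group overlapped the next one. Of the NDRG family, the other 3 genes were tested in 2i, where 1 was called higher and 2 lower, and 0 higher and 2 lower after scaling. Among all genes tested, 47.9% were called higher and 19.7% lower, and 30.3% and 33.8% after scaling. The median log2 difference of the 3 was -0.26, beside 0.19 over all genes. Ndrg1, a gene induced by hypoxia and stress, fell to 13.3 and 14.4 FPKM in 2i Foxd3-/-, against 34.3 and 35.2 FPKM in 2i Foxd3fl/fl (log2 difference -1.27, limma adjusted p = 5.24e-06). Ndrg3 fell by 0.26 on the log2 scale, and Ndrg4, at 0.28, was not called after scaling. In SL and with Foxd3 added, limma called 0 of these 3. Over all genes it called 1 of 12024 in SL, and 0.994% higher and 1.65% lower with Foxd3 added. With so few calls, a 0 for a short list says little.

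Pgm2 (ENSMUSG00000025791, now Pgm1) lies on chromosome 4, 99929414 to 99987294, plus strand, 271 kb from Foxd3 on the same chromosome. Its first bases overlap Itgb3bp, transcribed the other way, whose log2 difference in 2i was 0.03. The highest group mean was 39.0 FPKM in SL Foxd3fl/fl and stood apart from 30.2 FPKM in 2i Foxd3fl/fl; the remaining groups, down to 17.1 FPKM in 2i Foxd3-/-, overlapped their neighbours. The paralog listed as Pgm1 (ENSMUSG00000029171, now Pgm2), which acts on pentose phosphates, measured 26.4 and 27.1 FPKM in 2i Foxd3-/- and 28.7 and 30.6 FPKM in 2i Foxd3fl/fl (log2 difference -0.14, limma adjusted p = 0.078).

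Enzymes of glycogen and galactose metabolism moved in both directions. Of 20 tested besides Pgm2 in 2i, 8 were called higher and 3 lower, and 4 higher and 8 lower after scaling, with a median of 0.09 beside 0.19 over all genes. The shares of all genes were 47.9% higher and 19.7% lower, and 30.3% and 33.8% after scaling. Galk1, the galactokinase, rose to 132 and 137 FPKM in 2i Foxd3-/- against 76.9 and 81.9 FPKM in 2i Foxd3fl/fl. Pygl, the liver form of glycogen phosphorylase, rose by 0.64 on the log2 scale. Pygm, its muscle form, fell to 5.01 and 6.41 FPKM in 2i Foxd3-/- against 9.95 and 10.6 FPKM in 2i Foxd3fl/fl. Gys1, a glycogen synthase gene, rose by 0.52. Ugp2, which makes UDP-glucose and is the second most abundant, had a log2 difference of 0.27, and of 0.05 after scaling. Over all genes limma called 1 of 12024 in SL, and 0.994% higher and 1.65% lower with Foxd3 added. In SL it called 0 of the 20. With Foxd3 added 1 was called, Gys1, which fell to 10.6 and 9.14 FPKM in tetON Foxd3 against 20.0 and 19.0 FPKM in WT (log2 difference -0.92, limma adjusted p = 0.0399). The call was lost on leaving out any of the 4 libraries.

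Calca (ENSMUSG00000030669) lies on chromosome 7, 114631478 to 114636357, minus strand, with no overlapping gene. A level of the whole gene cannot tell its calcitonin from its calcitonin gene-related peptide transcripts. The group means were 6.31 FPKM in 2i Foxd3-/-, 8.69 FPKM in SL Foxd3-/-, 20.7 FPKM in SL Foxd3fl/fl, 28.1 FPKM in 2i Foxd3fl/fl, 29.2 FPKM in tetON Foxd3 and 35.1 FPKM in WT. The lower 4 stood apart from each other, and the upper 3 overlapped in turn. Its close relative Calcb did not exceed 0.139 FPKM in any library.

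Of 10 other genes of calcitonin-type peptides and their receptors, 5 were tested in 2i, where 0 were called higher and 3 lower (0 and 4 after scaling), with a median of -0.30. Among all genes tested, 47.9% were called higher and 19.7% lower, and 30.3% and 33.8% after scaling. Adm, the vasodilator peptide adrenomedullin, fell to 0.55 and 0.918 FPKM in 2i Foxd3-/- against 6.81 and 7.1 FPKM in 2i Foxd3fl/fl (log2 difference -2.21, limma adjusted p = 5.31e-06), and Adm2 and the receptor partner gene Ramp2 fell by 0.31 and 0.30. The call of Ramp2 was marginal (limma adjusted p = 0.0499). In the authors' deposited table the adjusted p was 0.102 for Adm2 and 0.37 for Ramp2, and without 1 library 1 or 2 of the list were called lower. Crcp, the most abundant, measured 27.4 and 24.3 FPKM in 2i Foxd3-/- and 27.8 and 28.5 FPKM in 2i Foxd3fl/fl (log2 difference -0.12, limma adjusted p = 0.168), and was called lower after scaling. Over all genes limma called 1 of 12024 in SL, and 0.994% higher and 1.65% lower with Foxd3 added. Of this list it called 0 of 6 in SL. With Foxd3 added it called 1 of 5, the calcitonin receptor gene Calcr, which rose to 1.8 and 1.65 FPKM in tetON Foxd3 against 0.0639 and 0.146 FPKM in WT (log2 difference 1.30, limma adjusted p = 0.0298). This call was lost without tetON Foxd3 replicate 1, WT replicate 1 or WT replicate 2. The receptor subunit Calcrl, which forms the receptor for calcitonin gene-related peptide, stayed at 0.993 FPKM or less throughout.

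A2m (ENSMUSG00000030111) lies on chromosome 6, 121635376 to 121679227, plus strand, with no overlapping gene. Its group means ran from 2.7 FPKM in SL Foxd3-/- through 3.47, 5.23 and 5.87 FPKM in WT, 2i Foxd3-/- and SL Foxd3fl/fl to 16.3 FPKM in tetON Foxd3 and 23.9 FPKM in 2i Foxd3fl/fl. Each neighbouring pair in that order overlapped. The relatives Mug1 and Mug2 were listed at 0 in every library, and Pzp stayed at 0.634 FPKM or less.

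Of 3 other tested genes of this family and its receptor in 2i, 1 was called higher and 2 lower, with and without scaling, with a median of -0.60. The shares of all genes were 47.9% higher and 19.7% lower, and 30.3% and 33.8% after scaling. Lrp1, the endocytic receptor that clears alpha-2-macroglobulin, fell to 4.94 and 5.5 FPKM in 2i Foxd3-/- against 10.4 and 8.81 FPKM in 2i Foxd3fl/fl (log2 difference -0.77, limma adjusted p = 0.000348). Cd109, a membrane member of the family, fell to 1.01 and 1.02 FPKM in 2i Foxd3-/- against 2.16 and 1.94 FPKM in 2i Foxd3fl/fl. Lrpap1, the chaperone of that receptor, rose to 94.2 and 97.5 FPKM in 2i Foxd3-/- against 22.7 and 26.3 FPKM in 2i Foxd3fl/fl (log2 difference 1.93, limma adjusted p = 1.46e-06). Receptor and chaperone moved in opposite directions. In SL and with Foxd3 added limma called 0 of the 3, beside 1 of 12024 genes in SL, and 0.994% higher and 1.65% lower with Foxd3 added.

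Enpp2 (ENSMUSG00000022425) lies on chromosome 15, 54838901 to 54952892, minus strand, and its start overlaps the noncoding gene Gm26684. Its group means were 5.4 FPKM in SL Foxd3-/- and 10.3 FPKM in SL Foxd3fl/fl, against 0.0337 FPKM in WT, the lowest of the other 4 groups, and 0.394 FPKM in 2i Foxd3-/-, the highest. The highest group mean was 307 times the lowest for Enpp2, and between 2.29 times for Pgm2 and 8.83 times for A2m for the others.

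SL cells were grown on feeders, and fibroblast markers were followed beside Enpp2. Of 20 listed, 19 were found. Their summed level was 1154 and 1011 FPKM in SL Foxd3-/- and 777 and 788 FPKM in SL Foxd3fl/fl libraries, 669 and 672 FPKM in 2i Foxd3-/- and 687 and 686 FPKM in 2i Foxd3fl/fl, and 444 and 473 FPKM in tetON Foxd3 and 330 and 312 FPKM in WT. Markers below 1 FPKM in both libraries numbered 3 in each SL group (Dcn, Lum and Pdgfra), 11 in 2i Foxd3-/-, 10 in 2i Foxd3fl/fl and 12 in tetON Foxd3 and in WT. Within SL, Enpp2 was lower where the summed markers were higher. The sum was also 669 FPKM or more in 2i, for which no feeders are named, so it does not measure feeders alone. The part of feeders in the Enpp2 level was not tested, and fewer cells of a type and less RNA per cell cannot be told apart in bulk samples.

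Of 6 tested genes for receptors and phosphatases that act on lysophosphatidic acid, 4 were called higher and 1 lower in 2i Foxd3-/- libraries (3 and 1 after scaling), with a median of 0.58. Of all genes 47.9% were called higher and 19.7% lower in 2i, and 30.3% and 33.8% after scaling. The receptor gene Lpar1 rose to 12.6 and 13.0 FPKM in 2i Foxd3-/- against 4.56 and 4.55 FPKM in 2i Foxd3fl/fl (log2 difference 1.31, limma adjusted p = 1.2e-05). Lpar2 fell to 4.12 and 4.5 FPKM in 2i Foxd3-/- against 9.26 and 9.97 FPKM in 2i Foxd3fl/fl (log2 difference -0.999, limma adjusted p = 5.61e-05). The lipid phosphatase genes Ppap2a and Ppap2b rose by 0.96 and 0.71. Of the other ENPP ectoenzymes 3 were tested in 2i and 3 called higher, 1 after scaling (Enpp4, log2 difference 0.69), beside the same 47.9% and 30.3% of all genes, with a median of 0.40; Enpp3, the most abundant, had 19.6 and 21.9 FPKM in 2i Foxd3-/- and 16.5 and 14.6 FPKM in 2i Foxd3fl/fl, and Enpp5 8.88 and 7.55 against 6.48 and 6.83 FPKM. In SL limma called 0 of 8 lysophosphatidic acid genes and 0 of 4 ENPP genes, and with Foxd3 added 0 of 8 and 0 of 3. Over all genes it called 1 of 12024 in SL, and 0.994% higher and 1.65% lower with Foxd3 added.

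**Figure D4:**
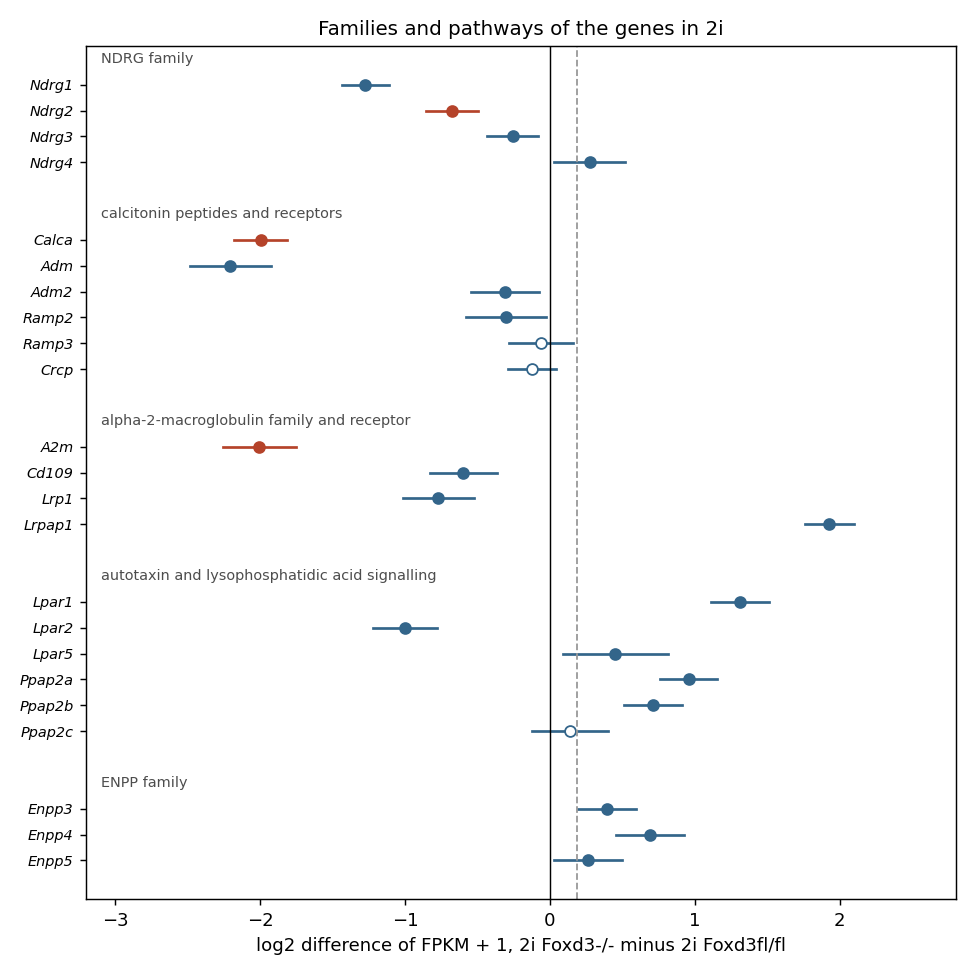
Log2 difference of FPKM + 1 in 2i for the tested genes of the NDRG, calcitonin, alpha-2-macroglobulin, lysophosphatidic acid and ENPP lists, with limma's 95% intervals, in red for Ndrg2, Calca and A2m and in blue for the rest. Filled points passed an adjusted p of 0.05, and the dashed line is the median of all genes at 0.19; Ndrg1, Adm and Lrp1 lie left of it with the red points and Lrpap1 and Lpar1 to its right.

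Dnah8 (ENSMUSG00000033826) lies on chromosome 17, 30624354 to 30877365, plus strand. It overlaps 7 other annotated genes, among them Glo1, the glyoxalase gene, at its start. The kit is not stated to keep the strand, so reads in the overlaps cannot be assigned with certainty. Glo1 measured 173 and 170.3 FPKM in 2i Foxd3-/- and 211 and 211 FPKM in 2i Foxd3fl/fl libraries (log2 difference -0.30, limma adjusted p = 0.000609). This was smaller than the Dnah8 difference on the log2 scale but larger in FPKM. In serum Glo1 measured 153 and 160 FPKM in SL Foxd3-/- against 183 and 173 FPKM in SL Foxd3fl/fl. The part of Glo1 reads in the Dnah8 level was not tested. The Dnah8 group means ran from 2.81 FPKM in SL Foxd3-/- and 3.6 FPKM in WT, which overlapped, to 5.42 FPKM in SL Foxd3fl/fl, 7.22 FPKM in tetON Foxd3, 8.7 FPKM in 2i Foxd3-/- and 23.0 FPKM in 2i Foxd3fl/fl, all apart.

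Dnah8 was the most abundant of the axonemal dynein heavy chains. Of 11 others found, 9 stayed below 1 FPKM in every library, and Dnah11 and Dnah12 reached at most 1.42 and 1.98 FPKM. Only 1 of these was tested in each comparison, with 0 called. Among all genes tested in 2i, 47.9% were called higher and 19.7% lower, and 30.3% and 33.8% after scaling. Of 12 tested genes for other parts of the axonemal dynein machinery in 2i, 6 were called higher and 1 lower (3 and 2 after scaling), with a median of 0.15. The lower one, Zmynd10, needed for dynein assembly, fell to 5.1 and 4.04 FPKM in 2i Foxd3-/- against 12.7 and 10.9 FPKM in 2i Foxd3fl/fl (log2 difference -1.20, limma adjusted p = 7.06e-05). Ccdc39, Dnaaf2 and the transcription factor gene Rfx3 rose by 0.70, 0.46 and 0.42; Rfx2, one of the 2 most abundant, had a log2 difference of 0.21, and of -0.01 after scaling; the other, Dnal4, had 11.1 and 11.4 FPKM in 2i Foxd3-/- and 9.88 and 11.1 FPKM in 2i Foxd3fl/fl. In SL and with Foxd3 added limma called 0 of the 12, beside 1 of 12024 genes in SL, and 0.994% higher and 1.65% lower with Foxd3 added. Male germ cell markers, 9 of 10 found, summed to 45.6 and 56.9 FPKM in SL Foxd3-/- and 76.4 and 75.9 FPKM in SL Foxd3fl/fl. In 2i the sums were 53.9 and 54.8 FPKM in 2i Foxd3-/- and 61.3 and 68.4 FPKM in 2i Foxd3fl/fl. With Foxd3 added they were 126 and 115 FPKM in tetON Foxd3 and 117 and 75.2 FPKM in WT. Acrv1 and Tnp1 lay below 1 FPKM in all groups. Of 7 of these markers tested in 2i, 1 was called higher and 3 lower, beside 47.9% and 19.7% of all genes. Of 6 tested elsewhere, 0 were called in SL, and 1 was called higher with Foxd3 added, beside the same shares of all genes. Their median log2 difference was -0.23 in 2i (0.19 over all genes), -0.52 in SL (-0.007) and -0.25 with Foxd3 added (0.03). The part of these markers in the Dnah8 level was not tested.

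Over all lists together, 86 genes besides the 6 were found. In SL limma called 0 of 57 tested (1 of 12024 genes in all). Unadjusted calls were 4 higher and 3 lower (6.07% and 3.05% of all genes). Over the 86 genes, with no filter, the authors' deposited p-values called 0, beside 0.44% of all genes higher and 0.095% lower. In 2i limma called 23 higher and 12 lower of 53 tested, beside 47.9% and 19.7% of all genes. Over the 86 genes, and not the 53, the authors' deposited p-values called 16 higher and 20 lower in 2i, beside 20.6% and 20.2% of all genes. With Foxd3 added the unadjusted counts were 12 higher and 3 lower of 55 tested, beside 10.4% of all genes in each direction. Again over the 86 genes with no filter, the authors' deposited p-values called 2 higher and 2 lower, beside 1.96% and 2.59% of all genes.

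Cell types in which these genes are known were looked for by their markers. Of 8 astrocyte markers, 4 (Gfap, Aqp4, S100b and Slc1a2) lay below 1 FPKM in both libraries of every group, and of 8 oligodendrocyte markers 2 (Mog and Sox10); the others reached 1 FPKM in at least 1 library. In 2i, 3 of 3 tested astrocyte markers were called higher, and 2 of 6 oligodendrocyte markers higher and 2 lower. Of all genes tested there, 47.9% were called higher and 19.7% lower. The part of these markers in the levels of Ndrg2 and Enpp2 was not tested. Ndrg2 is known from astrocytes and Enpp2 from oligodendrocytes. The astrocyte list summed to 133 and 136 FPKM in SL Foxd3-/- and 152 and 156 FPKM in SL Foxd3fl/fl, and to at most 77.4 FPKM in other groups, and the oligodendrocyte list to 25.3 FPKM or less. Primitive and visceral endoderm markers summed to 9.59 FPKM or less in every library. Trophoblast markers summed to 309 and 265 FPKM in SL Foxd3-/- and 195 and 159 FPKM in SL Foxd3fl/fl; whether they bear on the SL falls was not tested.

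The genes of most like pattern were sought among 10141 genes, by Pearson's r over the 12 libraries of log2(FPKM + 1), each library taken relative to the mean of its table. These values share the libraries, and the SL libraries that picked the 6 genes are among them. Pgm2 was most like Fam162a (r = 0.985), a hypoxia-induced mitochondrial protein gene, and Auh (0.978). Ndrg2 was most like Gpi1 (0.959), the glucose phosphate isomerase of glycolysis, and Upp1 (0.954), a uridine phosphorylase. A2m followed Bsg (0.982), the chaperone of lactate transporters, and Dtx3 (0.975). Calca followed Gpc3 (0.984), a glypican, and Gngt2 (0.977), a G protein subunit.

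The likeness of Dnah8 was greatest to Hadh (0.949), an enzyme of fatty acid oxidation, and Atp2a2 (0.948), a calcium pump. Enpp2, which hardly varied outside SL, had the loosest match, to Ppp2r5d (0.925) and Psmc3ip (0.887). Fam162a measured 58.9 and 74.3 FPKM in 2i Foxd3-/- against 121 and 116 FPKM in 2i Foxd3fl/fl, and 150.3 and 54.5 FPKM in tetON Foxd3 against 98.6 and 51.5 FPKM in WT, with the same high libraries as Pgm2. Gpi1 measured 383 and 398 FPKM in 2i Foxd3-/- against 609 and 547 FPKM in 2i Foxd3fl/fl, and 354 and 222 FPKM in tetON Foxd3 against 275 and 193 FPKM in WT. Gngt2 measured 4.3 and 5.94 FPKM in 2i Foxd3-/- against 19.2 and 19.7 FPKM in 2i Foxd3fl/fl, a fall near that of Calca in size (log2 difference -1.75).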

How the data were processed

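TruSeq v2 libraries of polyadenylated RNA were sequenced, per the labels' protocols. The submitters' processing notes name TopHat2, Cufflinks, DESeq2, SAMtools and FastQC, with mm10 and GRCm38 as builds; neither roles nor versions are given. The authors deposited 1 table per comparison with FPKM per library, a mean read signal per group, a signed fold (a score, negative where the first group is lower) and an unadjusted p-value, per the file headers. The medium of a deletion table was taken from the table's name.

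FPKM is not a count, so no count test was run. In each comparison the 4 libraries were fitted on log2(FPKM + 1) with limma 3.58.1 (R 4.3.3, trend, 2 residual degrees of freedom) for genes whose mean reached 1 FPKM in either group, with Benjamini-Hochberg adjustment over all genes tested and a threshold of 0.05. This scale understates changes of low genes. Exact permutation of 2 against 2 cannot go below p = 0.3333. The authors' p-values were adjusted over all genes of a table. The fit was tested on simulated data. Coordinates come from GENCODE M21, promoter windows from RefSeq.

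The 6 genes and the lists were chosen with earlier results of these data known. Named besides the 6 were Foxd3, up to 4 called genes and the 2 most abundant genes of each list (NDRG; calcitonin peptides and receptors; alpha-2-macroglobulin family; lysophosphatidic acid; ENPP; phosphoglucomutases, glycogen and galactose; axonemal dynein heavy chains; other axonemal dynein genes), and the 2 genes most like each of the 6. Relatives at or near 0, Glo1 and Itgb3bp were added after their values were seen.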

Additional observations from a re-analysis of the deposited data

Results flagged for a closer look

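Between the media, 5 of the genes named moved in opposite directions in every library under the label of deletion; these differences were not tested. The count holds for FPKM as deposited, and the share of all genes that did so is not given here. Libraries under the label of deletion lay wholly below the others for 17.3% of genes tested in SL and 26.6% in 2i. Enpp2 had a log2 difference of 0.062 in 2i, on at most 0.396 FPKM, against -0.83 in SL; the authors' deposited fold in 2i, -1.03, has the sign of SL. Cd109 had -0.60 in 2i and 0.27 in SL. Ndrg4 had 0.28 in 2i and -0.08 in SL. The paralog listed as Pgm1 had -0.14 in 2i and 0.32 in SL. Ppp2r5d, the gene most like Enpp2, had 0.046 in 2i, below the median of 0.19 over all genes, and -0.12 in SL. Limma called Ppp2r5d in neither medium (limma adjusted p = 0.504 in 2i and 0.857 in SL). After scaling it had -0.17 in 2i, and the authors' deposited fold was -1.14 (adjusted p = 0.00501), both with the sign of SL.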

How the results depend on the processing

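In 2i, the 5 calls held under every alternative except the single fit over 12 libraries, which left 2 (Calca and Dnah8). Without 1 replicate the count in 2i was 5 in each case, and genes called in 2i ranged from 6535 to 7791. With Foxd3 added, the fit with the replicate number as a block called 3 of the 6 genes (A2m, adjusted p = 0.00564; Ndrg2, 0.0358; Dnah8, 0.0378), the single fit over 12 libraries called 1 (Dnah8), and without 1 replicate the count was 0. Genes called in all there numbered 316, but 2473 with the block, 1727 in the single fit, 909 by the authors' p-values and 0 without a filter (3232 at an unadjusted p under 0.05), and 42 to 342 without 1 replicate (WT replicate 1, 42; WT replicate 2, 90; tetON Foxd3 replicate 1, 144). In SL, 1 gene was called, but 1997 with the block, 172 in the single fit, 107 by the authors' p-values, and 1 to 313 without 1 replicate (SL Foxd3-/- replicate 2, 313; SL Foxd3-/- replicate 1, 74; SL Foxd3fl/fl replicate 2, 12). Same-numbered libraries deviated together in SL (r = 0.60) and with Foxd3 added (0.60) but not in 2i (-0.05); no label pairs them, so they share only a number. In 2i the block gave 7566 calls, against 7864, and 5 of the 6 genes. Without 1 replicate, the difference with Foxd3 added ranged from -0.29 to 1.28 for Ndrg2 and from -0.40 to 1.08 for Pgm2. Yet within each number tetON Foxd3 lay above WT for A2m, Ndrg2, Pgm2 and Dnah8, and below WT for Calca. Counts of the lists moved too: without 1 replicate in 2i, calcitonin genes had 1 to 2 lower calls, NDRG genes 0 to 1 higher and 1 to 2 lower, glycogen and galactose enzymes 7 to 8 and 2 to 4, lysophosphatidic acid genes 3 to 5 and 1, ENPP genes 2 to 3 higher and other axonemal genes 3 to 5 and 1 to 2. With Foxd3 added, the list of Gys1 had a lower call in 0 and that of Calcr a higher call in 1 of these 4 fits, and neither had one without a filter. The cause of these moves was not tested. The depth of single libraries is not known, so no limit of detection is given.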

Other observations

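Pgm2 (now Pgm1) lies near Foxd3, which prompted a look at the other genes within 500 kb, chosen after their values were seen. Of 7 genes there with a row in the tables, Foxd3 included, 5 were tested in each comparison. Pgm2 was the only one called lower in 2i by limma, and 2 were called higher, Alg6, a glycosyltransferase gene 57.0 kb from Foxd3, and Atg4c, an autophagy protease gene 397 kb away on the other side. Limma called 47.9% of all genes higher and 19.7% lower in 2i. Alg6 measured 22.1 and 20.9 FPKM in 2i Foxd3-/- against 13.7 and 13.9 FPKM in 2i Foxd3fl/fl, and 7.53 and 8.91 FPKM in SL Foxd3-/- against 7.0 and 7.55 FPKM in SL Foxd3fl/fl. Itgb3bp, between Alg6 and Pgm2, measured 7.97 and 8.0 FPKM in 2i Foxd3-/- against 7.59 and 8.01 FPKM in 2i Foxd3fl/fl, and 12.1 and 12.8 FPKM in SL Foxd3-/- against 16.9 and 11.8 FPKM in SL Foxd3fl/fl.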
